A study of Mus musculus with 5 samples.

Results

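The gelsolin family comprises actin-binding proteins built from repeated gelsolin-like domains. Here its mouse members were Capg, Gsn, Scin, Vil1, Avil, Svil and Flii. They were found on the arrays by matching the RefSeq accession of each probe, without its version, to these genes, which gave 7 of the 22907 genes named on the arrays and 11 probes. Capg leads the account. It was chosen because earlier results of these data had shown it lower in both Tmsb4x knockout clones than in wild-type cells under TGF-β1, so its values in that comparison are a description and carry no test. The cells were B16F1, a mouse melanoma line, and the RNA of 5 cultures was measured on 5 Agilent arrays with the dye Cy3, 1 array per culture. The groups were 2 clones of Tmsb4x knockout cells treated with TGF-β1, and 1 culture each of wild-type cells treated with TGF-β1 plus CCG1423, with TGF-β1 alone and with vehicle. The dose of TGF-β1 was 10 ng/ml, and that of CCG1423, a small-molecule inhibitor of the MRTF pathway, was 10 µM. Treatment with TGF-β1, alone or with CCG1423, lasted 2 days. No duration is given here for the vehicle culture. Every group was the same line in medium with foetal bovine serum. The title and sample labels speak of a knockout and the design text of a knockdown, and they do not say which part of Tmsb4x was altered. Each knockout array is a single clone. The labels of the CCG1423 array differ among themselves: both agents stand in its title and its description, CCG1423 alone stands in its treatment field, and its source name has the spelling CCG14123.

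Gelsolin family proteins bind actin filaments under the control of calcium and membrane phosphoinositides. Gelsolin itself severs filaments and then caps their fast-growing barbed ends, whereas Capg caps barbed ends without severing. Tmsb4x encodes thymosin β4, a small peptide that holds actin monomers out of filaments. Monomeric actin in turn keeps the MRTF coactivators of the transcription factor SRF out of action, and many genes of the actin cytoskeleton are SRF targets. The series addressed how thymosin β4 relates to TGF-β and MRTF signalling in melanoma cells.

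The promoter of the lead gene is shown because Capg differed so widely between arrays. That of Vil1 is shown because it alone among the 6 members searched held one of the motifs. The sequences are from RefSeq, assembly GRCm38.p6, on the plus strand, and capitals mark a motif match. Capg is shown for the 250 bases before its start, chr6:72549397-72549646, and Vil1 for 60 bases around the match, chr1:74409286-74409345.
Capg: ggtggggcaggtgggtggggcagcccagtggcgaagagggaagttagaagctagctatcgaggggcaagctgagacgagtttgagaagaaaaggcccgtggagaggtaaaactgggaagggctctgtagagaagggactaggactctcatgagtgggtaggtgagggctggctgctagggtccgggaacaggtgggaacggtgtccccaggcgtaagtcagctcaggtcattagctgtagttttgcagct
Vil1: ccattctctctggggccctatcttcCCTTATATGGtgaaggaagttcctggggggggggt
Both strands of each 300-base window, from 250 bases before to 50 after a gene's start, were searched for the CArG box that SRF binds, GGAATG (bound by TEAD factors), TGANTCA (bound by AP-1) and GTCTAGAC (bound by SMAD proteins). RefSeq gave 8 windows for 6 of the 7 members, with 3 windows for Gsn. The Capg window held none of these motifs, which says only that those letters are not in it. The Vil1 window held 1 CArG box, with its first base at position -73 from the start. Among all 32851 windows, 1.63% held a CArG box, 14.7% held GGAATG, 7.81% held TGANTCA and 0.213% held GTCTAGAC. A match is a description of letters and not a site shown to be bound.

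Levels are given as the log2 of the background-subtracted signal minus the array's 75th percentile of it, and they can be set side by side between arrays for 1 probe but not between probes. The 75th percentile of the signal lay between 230 and 329 across the arrays, the share of probes well above background ranged from 48.2% to 53.8%, and 0 spots were saturated. The number of arrays limits the precision. Tmsb4x itself had levels of 5.44 in clone 1 and 4.28 in clone 2, against 6.79 with TGF-β1 and CCG1423, 7.12 with TGF-β1 and 5.05 with vehicle in wild-type cells. Its log2 difference between the clones and wild-type cells under TGF-β1 averaged -2.26 (SE 0.44, limma adjusted p 0.0857), so it was lower in both clones but did not pass the threshold of 0.05, which it did in 3 of 9 other settings. Where the alteration lies relative to the probe is not known, so this level does not check the labels. All 9 melanocyte markers were well above background on every array. In bulk RNA, fewer cells of a type and less RNA per cell cannot be told apart.

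Capg transcript was far higher under TGF-β1 than under vehicle in wild-type cells, stood a little higher again with TGF-β1 and CCG1423, and lay between these levels in both knockout clones. Its single probe, A_55_P1998631, was well above background on all 5 arrays. The level was 2.98 in knockout clone 1, 2.34 in knockout clone 2, 4.65 in wild-type cells with TGF-β1 and CCG1423, 4.09 with TGF-β1 and 0.78 with vehicle. The signals before scaling were 2223, 1664, 5775, 5015 and 513 in the same order. The vehicle array was the lowest and both wild-type arrays with TGF-β1 were the highest, with both clones between. That the clones lie below the array with TGF-β1 alone follows from how Capg was chosen, and each wild-type group is 1 array. Even on the vehicle array the spot was 21.1 times as bright as its local background, and on the other arrays 64.1 to 239 times.

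**Figure D1:**
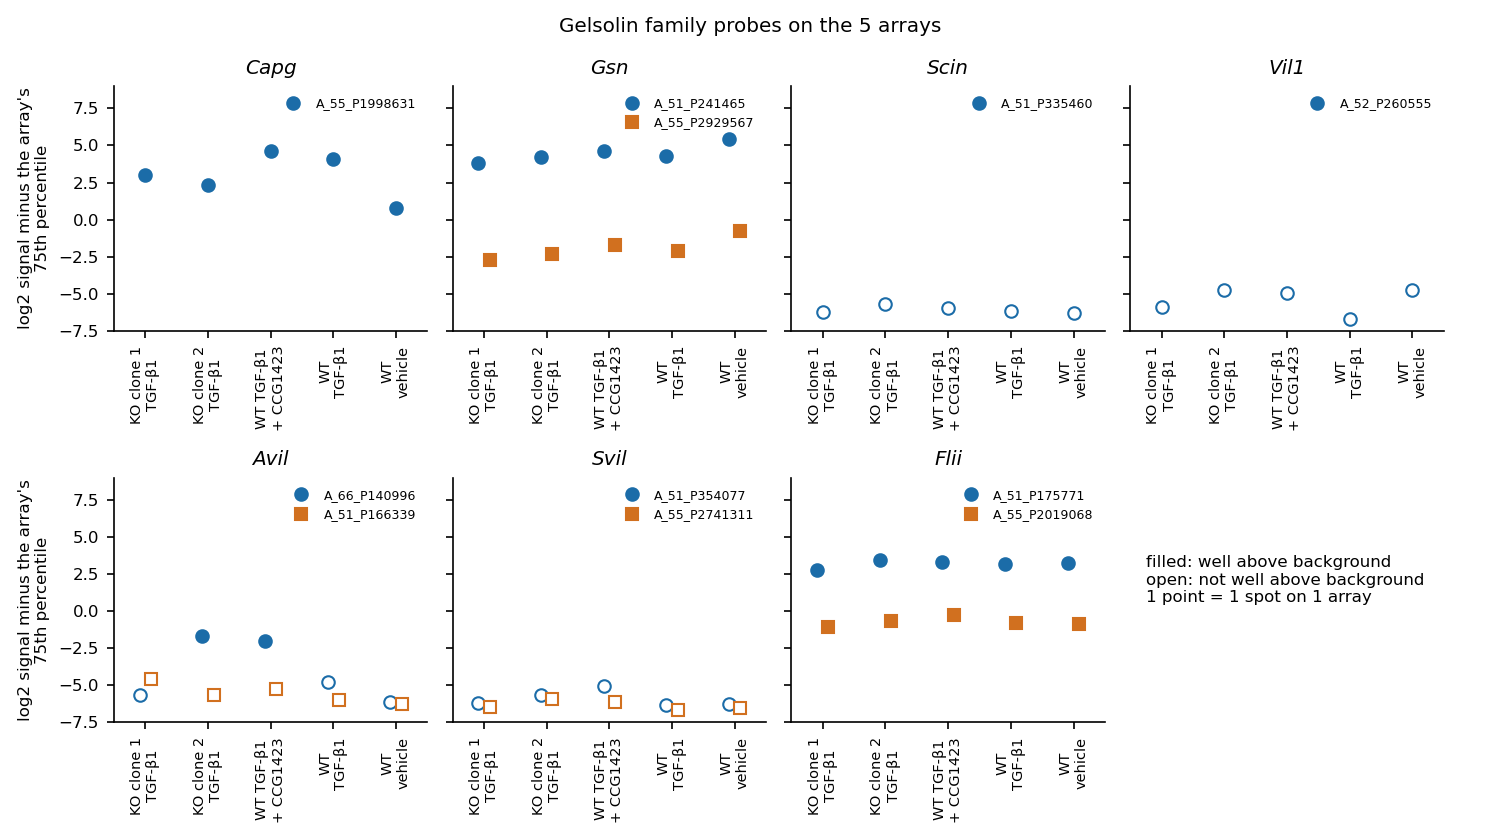
Levels of each gelsolin family probe (log2 signal minus the array's 75th percentile) on the 5 arrays, with knockout clones left of the wild-type arrays; filled points were well above background and open points were not. Capg reached 4.65 and 4.09 on the wild-type arrays with TGF-β1 and 0.78 on the vehicle array, while Scin, Vil1 and Svil were open on every array; heights of different probes are not comparable.

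With TGF-β1 against vehicle in wild-type cells, Capg was 9.93-fold higher, a log2 difference of 3.31. Across 14145 genes tested the median difference was -0.05 and the 5th to 95th percentiles ran from -0.82 to 1.38. Only 201 of these genes, Capg included, differed upward by as much. Under both agents against vehicle, Capg was 14.7-fold higher, and 143 of 13842 genes were as high or higher. Each of these rests on 1 array per condition, so neither difference has a replicate check.

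When CCG1423 was given with TGF-β1, Capg was 1.48-fold higher than with TGF-β1 alone, a log2 difference of 0.56. That is under 2-fold, and 2037 of 14057 genes lay at least as far up. The log2 difference between the clones (clone 1 minus clone 2) was 0.65, or 1.57-fold, which exceeds the difference between these wild-type arrays. With single arrays, neither a difference of this size nor its absence could be told from culture-to-culture spread.

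Capg is a known transcript of macrophages, so markers of immune cells were set beside it. Of 8 such markers, Ptprc, Lyz2, Adgre1, Cd14 and Tyrobp were well above background on no array, and Cd68, Csf1r and Fcer1g were on all. Their summed linear level was 8.69 in clone 1, 11.0 in clone 2, 13.0 with TGF-β1 and CCG1423, 6.93 with TGF-β1 and 7.15 with vehicle. The sum adds different probes, so the brightest probe weighs most in it. It was highest on the CCG1423 array, as was Capg. The 3 measured markers did not move together. Fcer1g, an Fc receptor subunit gene, had a level of 0.69 with TGF-β1 and -1.18 with vehicle. Cd68, which encodes a lysosomal protein and whose probe was the brightest of the 3, had 1.83 and 2.22. On the CCG1423 array Fcer1g had -1.49 and Cd68 3.33. The part of these markers in the Capg values was not tested.

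In the knockout clones Capg averaged 2.66 ± 0.46 (SD, n = 2), against 4.09 in the wild-type culture under TGF-β1 (n = 1). Clone 1 was 2.15-fold lower and clone 2 was 3.37-fold lower than wild type, a mean log2 difference of -1.43. Of 13729 genes tested, 448 had a mean difference that low or lower. Of the 3 family members measured here, 1, Capg, was 2-fold or more lower in both clones, beside 1.58% of all genes tested. Since Capg was chosen on this contrast, nothing is read from that count.

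Capg in the clones remained above the vehicle level. Clone 1 was 4.61-fold and clone 2 was 2.94-fold higher than wild-type cells with vehicle, a mean log2 difference of 1.88. Genotype and treatment differ together in this comparison. A mean difference as high or higher was found in 216 of 13490 genes. Of 3 members measured, 1 was 2-fold or more higher in both clones, beside 3.1% of all genes, and 1, Gsn, was lower, beside 2.45%. All comparisons against vehicle, in the clones and in wild-type cells, share 1 vehicle array. The wild-type TGF-β1 array enters its own comparison with vehicle and is the comparator for the clones and for the CCG1423 array. It is thus also the comparator of the contrast on which Capg was chosen.

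**Figure D2:**
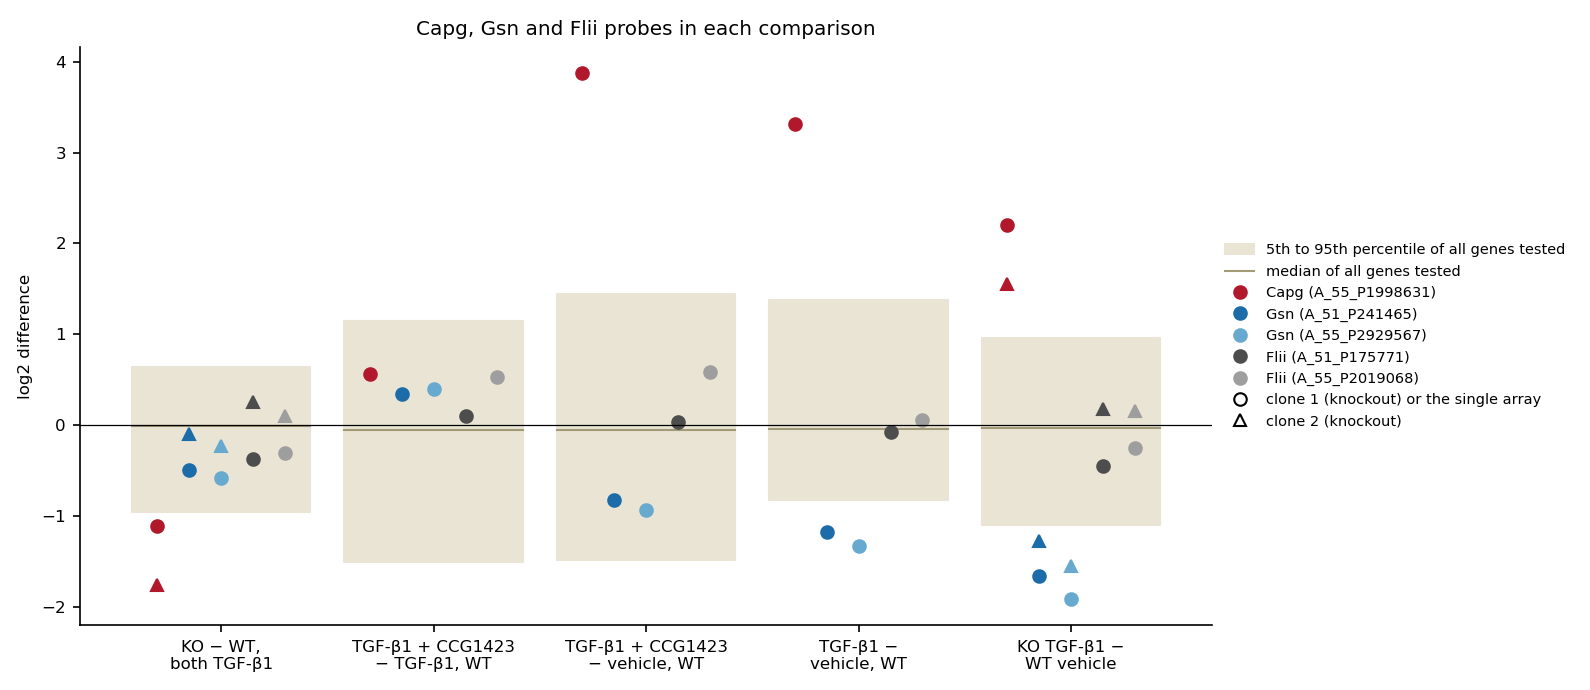
Log2 differences of the 5 probes of Capg, Gsn and Flii that were well above background on all arrays, with circles for clone 1 or a single array and triangles for clone 2; the shaded band is the 5th to 95th percentile and the line the median of all genes tested. The band is of clone means for the knockout. Capg lies above it in the 3 comparisons against vehicle, Gsn lies below it with TGF-β1 alone and in the clones against vehicle, and Flii lies inside it throughout.

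Gsn, which encodes gelsolin, the severing and capping founder of the family, went the other way from Capg against vehicle. By the probe A_51_P241465 its level was 3.80 in clone 1, 4.19 in clone 2, 4.63 with TGF-β1 and CCG1423, 4.29 with TGF-β1 and 5.46 with vehicle. The vehicle array was the highest of the 5. The 2nd Gsn probe, A_55_P2929567, was dimmer and gave -2.70, -2.35, -1.72, -2.12 and -0.79 in the same order. Both probes put the arrays in the same order, with vehicle highest and clone 1 lowest.

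With TGF-β1 against vehicle, Gsn was 2.25-fold lower by the brighter probe and 2.51-fold lower by the dimmer one. Of 14145 genes tested, 490 lay as far down as the brighter probe or further. Under both agents against vehicle the same probes gave 1.77-fold and 1.91-fold lower. When CCG1423 was added to TGF-β1, Gsn was 0.34 higher than with TGF-β1 alone on the log2 scale by the brighter probe and 0.40 higher by the dimmer one. Of 3 members measured with TGF-β1 against vehicle, 1, Capg, was 2-fold or more higher, beside 4.95% of all genes, and 1, Gsn, was 2-fold or more lower, beside 3.27%. With normexp background correction of the median spot signal the dimmer probe's log2 difference with TGF-β1 against vehicle was -0.82, below 2-fold, where it was -1.33 before. That probe's spots were only 2.78 to 7.18 times as bright as local background.

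Gsn in the knockout clones stood near its level in wild-type cells under TGF-β1. The clones averaged 3.99 ± 0.28 (SD, n = 2), against 4.29 in wild-type cells (n = 1), by the brighter probe. The log2 differences were -0.49 in clone 1 and -0.10 in clone 2 by that probe, and -0.58 and -0.22 by the other. Neither clone reached 2-fold. Against vehicle the clones were 3.17-fold and 2.41-fold lower by the brighter probe.

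Fibroblasts express gelsolin strongly, and their markers were set beside it. The summed linear level of the 6 fibroblast markers was 0.124 in clone 1, 0.168 in clone 2, 0.194 with TGF-β1 and CCG1423, 0.188 with TGF-β1 and 0.416 with vehicle, so the sum was highest on the array where Gsn was highest. Pdgfra, Pdgfrb, Dcn and Thy1 were well above background on no array. Lum, which encodes a matrix proteoglycan, was so on the vehicle array alone, with a level of -1.78, and makes up most of that array's sum. Col6a1, a collagen gene, went the other way: it was well above background with TGF-β1 and CCG1423 (-3.89) and with TGF-β1 (-4.18), and not with vehicle (-5.31). In the clones 0 of the 6 fibroblast markers were well above background, so the sums of the clones hold only signal below that call. The part of these markers in the Gsn result was not tested.

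Flii, which encodes flightless I, a gelsolin-like protein with leucine-rich repeats that also acts as a coactivator of nuclear receptors, stayed within 2-fold in every comparison by both of its probes. By A_51_P175771 its level was 2.79 in clone 1, 3.43 in clone 2, 3.28 with TGF-β1 and CCG1423, 3.17 with TGF-β1 and 3.24 with vehicle. The wild-type arrays lay between the clones. The clones averaged 3.11 ± 0.45 (SD, n = 2), and their difference, clone 1 minus clone 2, of -0.63 on the log2 scale exceeded every difference among the wild-type arrays. With TGF-β1 against vehicle Flii differed by -0.07.

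The dimmer Flii probe, A_55_P2019068, gave -1.10 in clone 1, -0.69 in clone 2, -0.26 with TGF-β1 and CCG1423, -0.79 with TGF-β1 and -0.85 with vehicle. Here the CCG1423 array was the highest, 0.53 above TGF-β1 alone on the log2 scale, where the brighter probe gave 0.11. Both probes put clone 1 lowest.

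Avil encodes advillin, known from sensory neurons, and its 2 probes disagreed. Probe A_66_P140996 was well above background only in clone 2 and in wild-type cells with TGF-β1 and CCG1423. Its levels were -5.66 in clone 1, -1.66 in clone 2, -2.04 with TGF-β1 and CCG1423, -4.77 with TGF-β1 and -6.14 with vehicle, and the spots of clone 2 and the CCG1423 array were 5.08 and 3.02 times their local background. Where the comparator was not well above background, the fold is a bound against the lowest signal called well above background on that array. Clone 2 was at least 7.01-fold and the CCG1423 array at least 5.41-fold higher than wild-type cells with TGF-β1. Against vehicle these were at least 6.12-fold and at least 4.72-fold. With normexp background correction the log2 differences of the CCG1423 array were 0.87 against TGF-β1 and 1.06 against vehicle, against 2.74 and 4.10 before.

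The clones stood apart for Avil, clone 1 being at least 5.81-fold lower than clone 2. The Avil probe A_51_P166339 was well above background on no array, with levels of -4.56, -5.64, -5.23, -6.02 and -6.24 in the order above. Avil entered comparisons only through the arrays where it was bright, so its presence among the counts supports nothing. With it, 1 of 4 members was 2-fold or more higher with TGF-β1 and CCG1423 against TGF-β1, beside 6.01% of all genes, and 0 of 4 were lower, beside 6.98%. Under both agents against vehicle 2 of 4 were higher, beside 7.56% of all genes, and 0 of 4 were lower, beside 8.06%. Between the clones 0 of 4 were higher in clone 1, beside 3.34%, and 1 of 4 was lower, beside 4.24%.

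Scin, Vil1 and Svil had no measurable level. Scin encodes adseverin, a severing protein of secretory cells. Vil1 encodes villin, which bundles actin in the microvilli of epithelia, and Svil encodes supervillin, which links actin and myosin to the membrane. Their 4 probes were well above background on none of the 5 arrays. For Vil1 probe A_52_P260555 the levels were -5.89 in clone 1, -4.75 in clone 2, -4.95 with TGF-β1 and CCG1423, -6.72 with TGF-β1 and -4.76 with vehicle. Scin probe A_51_P335460 ranged from -6.31 to -5.68, and the Svil probes A_51_P354077 and A_55_P2741311 from -6.35 to -5.05 and from -6.67 to -5.90. These values have no order and no fold is given. Of 6 epithelial markers, Epcam, Cdh1, Krt8, Krt18 and Krt19 were also well above background on no array. The other, Krt5, was so in wild-type cells with TGF-β1 and CCG1423 (-3.60), with TGF-β1 (-3.83) and with vehicle (-2.90), and in neither clone.

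Other regulators of actin were described from 7 lists of 124 genes in all, none of which holds a gelsolin family member. In the knockout clones against wild-type cells under TGF-β1, 0 of the 106 list genes measured passed limma at an adjusted p of 0.05, while 9 were under 0.05 before adjustment. Over all 13729 genes, 793 were under 0.05 before adjustment and 0.233% passed at the adjusted threshold. In the other settings of limma between 0 and 6 list genes passed, the most with the deposited value table. Their median log2 difference was -0.17, against -0.01 over all genes tested. Of these list genes, 2 were 2-fold or more higher in both clones and 4 were lower, 1 of them Tmsb4x itself, against 0.699% and 1.58% of all genes. The smallest adjusted p was 0.0588.

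Genes of filament-end capping and uncapping are the closest in role to Capg. Of 18 measured, 0 were 2-fold or more higher or lower in both clones, beside 0.699% and 1.58% of all genes. At those shares a list this small would hold few such genes or none. The median of the list was -0.01. With TGF-β1 against vehicle, 2 of 18 were lower, beside 3.27% of all genes, and 0 were higher, beside 4.95%. Those 2 cap the slow-growing pointed end of filaments. Tmod1 was 2.65-fold lower and Tmod2 2.03-fold lower. With CCG1423 added to TGF-β1, 2 of 18 were higher and 1 lower, beside 6.01% and 6.98% of all genes. Tmod1 was 5.01-fold higher, Tmod2 2.19-fold higher and Eps8, which caps barbed ends, 2.32-fold lower.

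Among 21 genes of filament severing and turnover, the role closest to gelsolin's, 1 was higher and 1 lower in both clones than in wild-type cells with TGF-β1, beside 0.699% and 1.58% of all genes. Coro1a, which encodes an actin-binding coronin, was 2.18-fold and 2.72-fold higher (limma adjusted p 0.700), and Mical2, which encodes an actin-oxidising enzyme, was 2.75-fold lower in clone 1 and at least 3.98-fold lower in clone 2 (limma adjusted p 0.374). Neither passed, though Mical2 did in 1 of 9 other settings. With TGF-β1 against vehicle, 1 of 21 was 2-fold or more higher and 0 lower, beside 4.95% and 3.27% of all genes. That gene, Limk2, a kinase that inactivates cofilin, was 2.32-fold higher. With CCG1423 added to TGF-β1, 1 of 21 was higher and 1 lower, beside 6.01% and 6.98% of all genes. Ssh1, a phosphatase that activates cofilin, was 2.61-fold higher and Pdxp, another cofilin phosphatase, 2.72-fold lower.

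The remaining lists held genes for monomers, nucleation and partners of Flii. Of 10 monomer-binding genes measured, 2 were 2-fold or more higher under TGF-β1 against vehicle, beside 4.95% of all genes, namely Tmsb4x at 4.21-fold and Mtss1, which encodes an actin-monomer-binding membrane scaffold, at 5.12-fold. The Arp2/3 list had a median of -0.14 in the clones over 16 genes, and the formin list -0.38 over 14. Of either list 0 members were 2-fold or more higher or lower in both clones, beside 0.699% and 1.58% of all genes. Of formins, Fhod3 was 2.09-fold higher with TGF-β1 against vehicle and 4.29-fold lower with TGF-β1 and CCG1423 against TGF-β1. Fmn1 went the other way in the latter comparison, at 2.16-fold higher. There 1 of 14 genes of the formin list was higher and 1 lower, beside 6.01% and 6.98% of all genes. With TGF-β1 against vehicle 1 of 14 was higher and 0 lower, beside 4.95% and 3.27% of all genes. The 4 measured of 6 genes for partners of Flii, such as Lrrfip1, had a median of -0.40 in the clones. Of these 4, 0 were 2-fold or more higher or lower in both clones, beside 0.699% and 1.58% of all genes.

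Targets of MRTF and SRF in the actin cytoskeleton form the list that CCG1423 bears on. With TGF-β1 against vehicle, 8 of 23 were 2-fold or more higher and 0 lower, beside 4.95% and 3.27% of all genes, with a median of 0.41 against -0.05 over all genes. With TGF-β1 and CCG1423 against TGF-β1, 4 were lower and 1 higher, beside 6.98% and 6.01% of all genes. The median was -0.27 against -0.05 over all genes, and 16 of 23 were below 0 against 53.7% of all genes, where Capg differed by 0.56. Myl9, a myosin light chain gene, was 2.27-fold lower and Fblim1, which encodes a filamin-binding adaptor, 2.26-fold lower, while Ccn1, which encodes a matrix protein, was 2.15-fold higher. Whether Capg differs from these genes was not tested.

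In the clones 20 of 23 of these targets were below 0 against wild-type cells under TGF-β1, where 50.5% of all genes were, and their median was -0.54 against -0.01. Of these targets 2 were 2-fold or more lower in both clones and 1 was higher, beside 1.58% and 0.699% of all genes. Myl9 was 2.90-fold and 3.97-fold lower (limma adjusted p 0.0588), and Fblim1 was 2.13-fold and 2.32-fold lower (limma adjusted p 0.513). Fhl1, which encodes a LIM-domain protein, was 11.0-fold and 6.33-fold higher (limma adjusted p 0.0588). The Fhl1 folds rest on a dim comparator. Its level in wild-type cells with TGF-β1 was -3.91, where the lowest level called well above background on that array was -4.47. Myl9, Fblim1 and Fhl1 did not pass the threshold, but of 9 other settings Myl9 passed in 4 and Fhl1 in 3. Ccn2, which encodes a matrix protein, was 33.4-fold and 39.2-fold higher in the clones than in vehicle-treated wild-type cells, and 55.5-fold higher under TGF-β1 in wild-type cells.

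**Figure D3:**
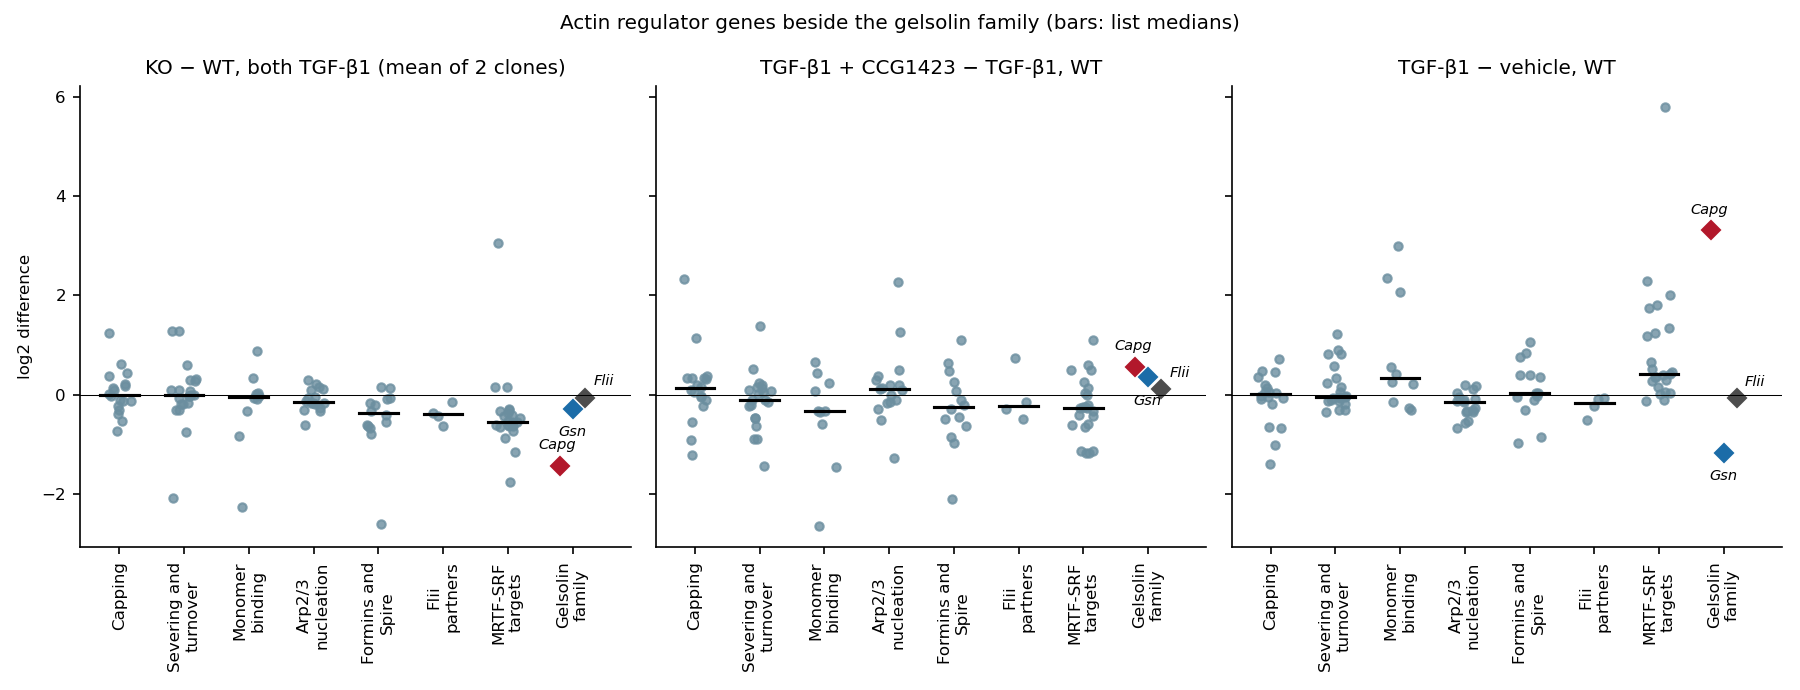
Log2 differences of the genes of 7 actin regulator lists (points, with a bar at the median) and of Capg, Gsn and Flii (diamonds) in 3 comparisons; for the knockout the mean of 2 clones is shown, each point is 1 gene, and signals below background enter without a floor. Capg is at 3.31 with TGF-β1 against vehicle and at 0.56 with CCG1423 added, where the median of the MRTF-SRF list is 0.41 and -0.27.

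The genes whose pattern over the 5 arrays was most like that of Capg were ranked by the root mean square difference of their levels from Capg's, after each gene's own mean was removed, among 12057 genes well above background on all arrays. Of the 10 closest, 9 are given here: Edil3 (0.27), 5730416F02Rik (0.31), Jag1 (0.31), Ip6k3 (0.46), Unc5b (0.49), Col18a1 (0.52), Nuak1 (0.54), Fam178b (0.54) and C1s1 (0.57). Edil3 encodes a secreted integrin ligand, Jag1 a Notch ligand and Unc5b a netrin receptor. Of the list genes the closest was Ccn1 at 0.77, ranking 31, and Tmsb4x ranked 54 at 0.84. Likeness was also measured by correlation, among the 3210 of these genes whose levels ranged over at least 1 log2 unit. By that measure 4 of the 10 remained, so the ranking depends on the measure.

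Edil3 differed by 3.31 on the log2 scale with TGF-β1 against vehicle, as Capg did, by 1.02 with CCG1423 added, and by -0.46 and -1.23 in the clones against wild-type cells with TGF-β1. Jag1 differed by 2.74, 0.21, -0.86 and -1.81 in those comparisons. Unc5b differed by 2.32, 0.70, -0.90 and -2.29. Likeness here was over 5 arrays of which 4 had TGF-β1, so a single low vehicle array weighs heavily in it.

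**Figure D4:**
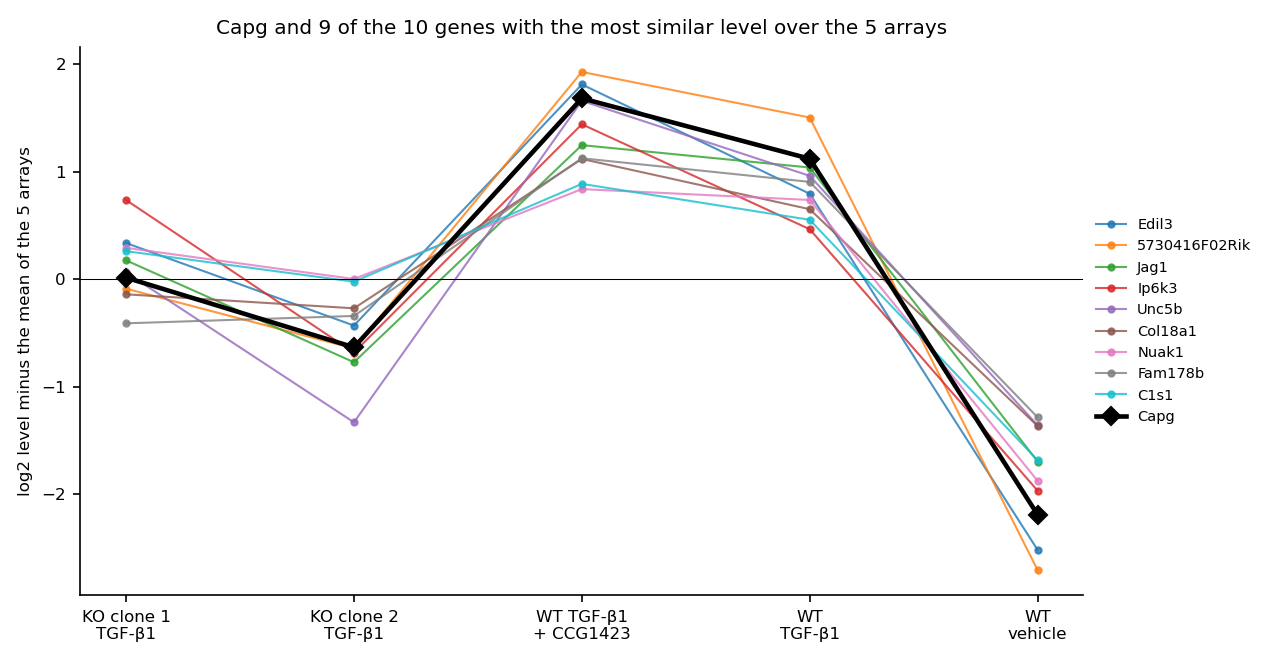
Levels of Capg and 9 of the 10 genes most like it on the 5 arrays, each gene's mean over the arrays removed (log2 units), knockout clones left. Every gene shown was lowest with vehicle and highest with TGF-β1 and CCG1423.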

How the data were processed

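The deposited files are scanner outputs of 5 arrays, written by Agilent Feature Extraction, version 12.0.3.1 by the submitters' processing notes, and a value table of the series. Per the file headers, the deposited intensity (processed signal) has local background and spatial trend removed on each array, with no step between arrays. Flags for outliers, saturation and signal well above background were set by the same software, per the file headers. Control spots (3671) and outlier spots were left out, log2 signals of a probe were averaged and each array's 75th percentile was subtracted, which left 56595 probes. Probe names came from RefSeq accessions matched to a table of assembly GRCm38.p6, and since the arrays name an older build, the only coordinates printed are those of the RefSeq promoter windows, in GRCm38.p6. The probe with the highest mean stood for a gene in list and whole-table counts.

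A comparison took the genes whose probe exceeded background, by the flag, throughout 1 or more of its groups, and a side below background was floored for folds. Counts used 2-fold (log2 of 1). limma 3.58.1 in R 4.3.3, with Benjamini-Hochberg adjustment, tested knockout against wild type on all 5 arrays with 1 residual degree of freedom, so the wild-type arrays are assumed to vary like the clones. The spread behind the p-values is that between the 2 knockout clones, with 1 array each. No label states that cultures were grown separately, so clone, culture and technical differences cannot be told apart in that spread. It holds no spread among wild-type cultures. All arrays were on 1 slide in 1 scan. Members and lists were chosen with earlier results of these data known. The rule for named genes took every family probe and Tmsb4x, up to 2 highest and 2 lowest genes of each list at 2-fold per comparison, and the 10 genes most like Capg, of which 1 is not reported here. Figures used Python 3.11.15 and matplotlib 3.10.9.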

Additional observations from a re-analysis of the deposited data

How the results depend on the processing

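The 5 Capg differences between groups kept their direction in every setting and moved by less than the SD of the clones; for leaving out a clone that follows from the arithmetic. Outside those settings Capg ranged from -1.63 to -1.43 in the knockout against wild type and from 3.22 to 3.41 with TGF-β1 against vehicle. The difference between clones was not recomputed for Capg. Normexp used the median signal, chosen after seeing the data in place of the planned mean signal, which was not run. Under normexp the 2nd Gsn probe, A_55_P2929567, gave -0.82 under TGF-β1, -0.49 under both agents and -1.02 in the clones, each against vehicle, and the Avil probe A_66_P140996 gave 1.06 with TGF-β1 and CCG1423 against vehicle, where it gave 4.10 before. Avil in the clones against TGF-β1 ran from -0.89 without clone 2 to 3.11 without clone 1, and so reversed. The limma count of 32 genes became 87 under normexp, 74 with the percentile over detected probes, 0 under quantile normalization (789 at an unadjusted p), 220 with the deposited value table, 17 with outlier spots kept, 0 with the median over probes (744 at an unadjusted p), 279 with no filter, 3 when every array had to be above background, and 184 without a trend. For the list genes, 6 of 106 passed with the value table, where Myl9, Fhl1 and Tmsb4x were among them. Counts at 2-fold fell under normexp to 136 from 313 in the knockout against wild type, 577 from 1162 with TGF-β1 against vehicle, 879 from 1826 with CCG1423 added, 1194 from 2162 with both agents against vehicle, 406 from 749 in the knockout against vehicle and 493 from 1049 between clones. With every array above background they were 132, 622, 470 and 543 for knockout against wild type, TGF-β1 against vehicle, knockout against vehicle and the clones. Leaving out a clone gave 763 to 855 and 1164 to 1430 for the knockout against wild type and against vehicle, since a single clone had to pass; limma could not be run then, with no residual degree of freedom. The value table moved the median of all genes to -0.20 in the knockout against wild type, -0.18 with CCG1423 added, -0.12 in the knockout against vehicle and -0.27 between clones. It left 16% of calls higher in the knockout against wild type, against 30.7% in the main setting, 33.5% against 46.3% with CCG1423 added and 20.6% against 44.0% between clones. With the median over the probes of a gene, 49.5% of calls in the knockout against wild type were higher (187 higher and 191 lower, against 96 and 217). The likeness ranking by correlation shared 4 of its 10 genes. The causes were not tested. No paired analysis was possible because the groups share fewer than 2 replicate numbers.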
